A study of Mus musculus with 8 samples.

Results

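The genes described here build, hold and break down the versican and hyaluronan matrix of fibroblasts. They were 10 genes chosen by name, of 21656 genes named on the array: versican (Vcan), aggrecan (Acan), the link protein gene Hapln1, the hyaluronan synthase genes Has1, Has2 and Has3, the hyaluronan receptor gene Cd44, the hyaluronidase genes Hyal1 and Hyal2, and Tnfaip6, which encodes the hyaluronan-binding protein TSG-6. The hypoxia group held 4 arrays of primary mouse embryonic fibroblasts kept for 24 h in 1% oxygen, and the normoxia group held 4 arrays of the same kind of cells kept for 24 h in atmospheric oxygen. All cells were grown in high-glucose DMEM with serum at 5% CO2 and 37 °C in 100 mm dishes, and 50 ng of total RNA per sample was amplified for the Affymetrix Mouse Exon 1.0 ST array. No source used here gave the strain or genotype of the embryos or the passage of the cells, which were a bought primary culture and not a clonal line.

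Hyaluronan is a long unbranched sugar polymer that synthases in the plasma membrane spin out into the space around the cell. Versican and aggrecan are large proteoglycans that bind hyaluronan through one end of their core protein, link proteins lock that bond, and the chondroitin sulfate chains of the core draw water into the gel that results. Fibroblasts make this loose matrix in development and wound repair, hold it through CD44, and clear it through hyaluronidases and other hyaluronan-degrading proteins.

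The 10 genes had been proposed with results of the same hypoxia and normoxia arrays in view, so their differences are given as a description, no p is given for them, and the number that passed the limma threshold is printed only beside the share of all genes that did. An array feature is called a row, which is a probe set for an exon or a part of one. The 10 genes were named alone by 160 rows of 641130, and 108 of these had a mean log2 intensity over the 8 arrays at or above the table median of 2.35. The other 52 rows were dim and did not enter the value of a gene, which is the mean log2 intensity of its kept rows. Differences are hypoxia minus normoxia on this log2 scale, and errors are standard errors from limma, a linear model fitted to all 18848 genes that had a kept row. RNA was measured in bulk, so fewer cells of a kind and less RNA per cell cannot be told apart.

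Normoxia arrays resembled each other more than hypoxia arrays did. The correlation over all rows was 0.859 to 0.878 within hypoxia, 0.923 to 0.944 within normoxia and 0.876 to 0.905 between the groups. Hypoxia arrays also had a narrower spread of values, with an interquartile range of 2.51 to 2.61 against 2.77 to 2.90 on normoxia arrays. Over all genes the median difference was -0.19, with 24.3% above 0, so a gene with no difference lay above most other genes. The 10 fibroblast markers, among them Col1a1, Vim and Pdgfra, were all brighter than the 90th percentile of 315 measured olfactory, vomeronasal and trace amine receptor genes that fibroblasts should not use, as were 1 of 9 cartilage, 2 of 7 epithelial, 0 of 4 measured endothelial and 1 of 6 blood and macrophage markers. The mean over the fibroblast markers was 7.17 to 7.32 on hypoxia arrays and 7.08 to 7.29 on normoxia arrays. Single markers went apart under this mean, although none passed the limma test. Groups did not overlap for Col3a1 (0.49) and Dcn (0.41), with hypoxia above, or for Pdgfrb (-0.64), with hypoxia below. Of all genes 1.87% lay above and 14.5% below in this way. Among 6 genes of the oxygen response, Bnip3, Egln3, Pdk1, Pgk1, Ldha and Slc2a1, all 6 passed the limma test as higher, where 0.531% of all genes did. These 6 were listed with earlier results of these data known, so the count is a description.

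Vcan encodes versican, the main large proteoglycan of loose connective tissue. Its level was 7.004, 6.83, 7.10 and 7.14 on the hypoxia arrays, and 5.99, 6.26, 6.05 and 6.06 on the normoxia arrays. Every hypoxia array lay above every normoxia array, and the gap between the lowest hypoxia and the highest normoxia array was wider than the range within either group. The mean was 7.02 ± 0.14 in hypoxia and 6.09 ± 0.12 in normoxia (SD, n = 4 each), a difference of 0.93 ± 0.12 or 1.90-fold. Measured from the median of all genes the difference was 1.12.

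Vcan was the 1 gene of the 10 that passed the adjusted threshold of 0.05 as higher, where 0.531% of all genes did, and none passed as lower, where 0.796% of all genes did. It did not pass without normoxia replicate 3 or without normoxia replicate 4, although the difference was then 0.91 and 0.92. Only Vcan also had groups that did not overlap, which 1.87% of all genes showed with hypoxia above and 14.5% with hypoxia below. Since Vcan was chosen with this contrast known, nothing is read from either count.

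**Figure D1:**
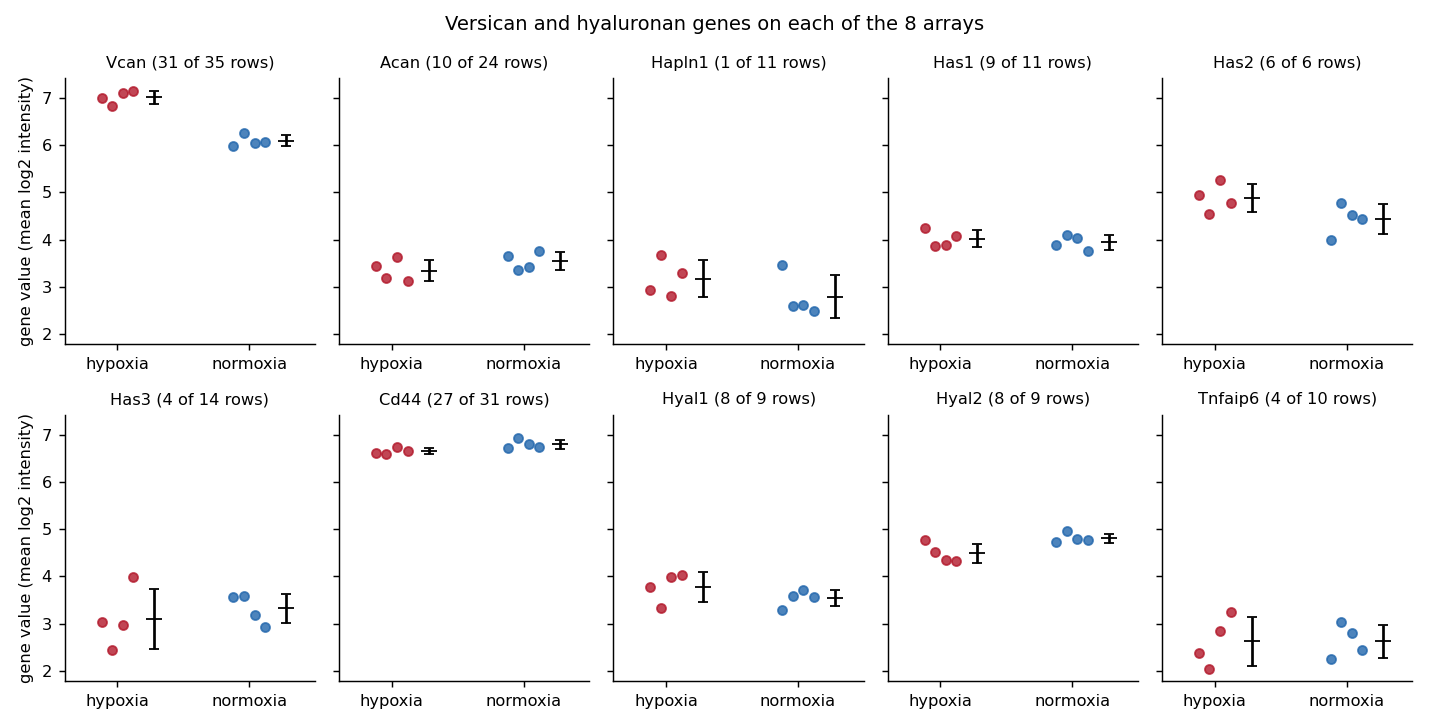
Level of each of the 10 genes on each array, as the mean log2 intensity of its kept rows. Each point is 1 array, with hypoxia at the left and normoxia at the right of each panel, and the bars give the mean and SD of 4 arrays. The 4 hypoxia arrays of Vcan sit between 6.83 and 7.14, above the normoxia arrays at 5.99 to 6.26, and in the other panels the groups overlap.

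The Vcan window upstream of the transcription start is shown because Vcan stood apart from the other 9 genes. It is the 250 bases before the annotated start in RefSeq for GRCm38.p6, chr13:89742513-89742762 on the minus strand, written 5′ to 3′ along the gene. Windows of this kind were found for 8 of the 10 genes, with none for Has2 and Has3 in the table used. The core of the hypoxia response element was searched as ACGTG and also with G as its first base. A TATA box was searched as TATAAA. An AP-1 site was searched as TGANTCA, with N for any base. Both strands were searched for each motif, the core and the AP-1 site can share their TG, and none was found in the Vcan window, so it holds no capitals:
Vcan: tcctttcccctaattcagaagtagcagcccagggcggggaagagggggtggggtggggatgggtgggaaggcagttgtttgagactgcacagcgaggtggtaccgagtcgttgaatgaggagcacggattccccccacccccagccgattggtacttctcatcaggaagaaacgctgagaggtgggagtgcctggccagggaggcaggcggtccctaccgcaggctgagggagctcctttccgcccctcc

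The core of the hypoxia response element was present in 38.6% of 32851 such windows, the TATA box in 12.4% and the AP-1 site in 6.75%. Among the 8 windows, that of Cd44 held the hypoxia response element core and that of Tnfaip6 held the AP-1 site, while none held the TATA box. A match in so short a window is a description of its letters, and no match says only that these letters are not in it.

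The rows of Vcan moved together to a large extent. Of its 35 rows, 31 were kept, and in 26 of the 31 all hypoxia arrays lay above all normoxia arrays. That is 83.9% of the kept rows, where 2.24% of all kept rows naming 1 gene did so. With dim rows included the count was 28 of 35, beside 3.15% of all rows naming 1 gene, and in no Vcan row did all hypoxia arrays lie below, which 4.74% of all rows naming 1 gene showed. The differences of these 26 rows ran from 0.61 to 2.56 with a median of 1.06. In 2 of them, with differences of 1.22 and 2.56, the normoxia mean was below the table median, so that these rows were kept through their hypoxia values alone. Rows of a gene share the same arrays and the same RNA, so they show how even a difference was along the gene and are not replicates of it.

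The brightest Vcan row read 9.83, 9.83, 9.79 and 9.48 in hypoxia, against 9.22, 8.75, 8.86 and 9.16 in normoxia. Its difference of 0.74 was among the smaller ones of the 26 rows. The row with the largest difference was dim in normoxia, with 4.30, 4.18, 4.16 and 4.18 in hypoxia, against 1.20, 2.67, 1.68 and 1.03 in normoxia. Its normoxia values lay around the table median or below it, where background makes up much of the signal, so its difference of 2.56 is less certain than those of the bright rows.

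In 5 kept Vcan rows the groups overlapped, and 4 of these had a negative difference, from -0.85 to -0.23. The brightest of the 4 read 5.69, 3.79, 5.01 and 6.31 in hypoxia, against 6.03, 5.86, 5.30 and 5.73 in normoxia, a wider scatter in hypoxia than in most other Vcan rows. The fifth overlapping row had a difference of 1.31. Versican RNA is spliced so that the large exons for chondroitin sulfate attachment are kept or skipped. The annotation used here ties no row to an exon, so no row could be assigned to an isoform. The Vcan gene overlaps the pseudogene Gm16318 and the lncRNA gene Gm4117 in RefSeq.

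On each of the 4 hypoxia arrays, 27 or 28 of the 31 kept Vcan rows lay above the normoxia mean of the row. The 26 rows with separated groups lie above it on every hypoxia array by definition. The count therefore adds little to the one given above. The median distance from that mean over the 31 rows was 0.94, 0.97, 1.03 and 0.93 on hypoxia replicates 1 to 4. Of the 4 dim rows, 2 also had all hypoxia arrays above all normoxia arrays, which 3.15% of all rows naming 1 gene, dim or kept, showed.

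**Figure D2:**
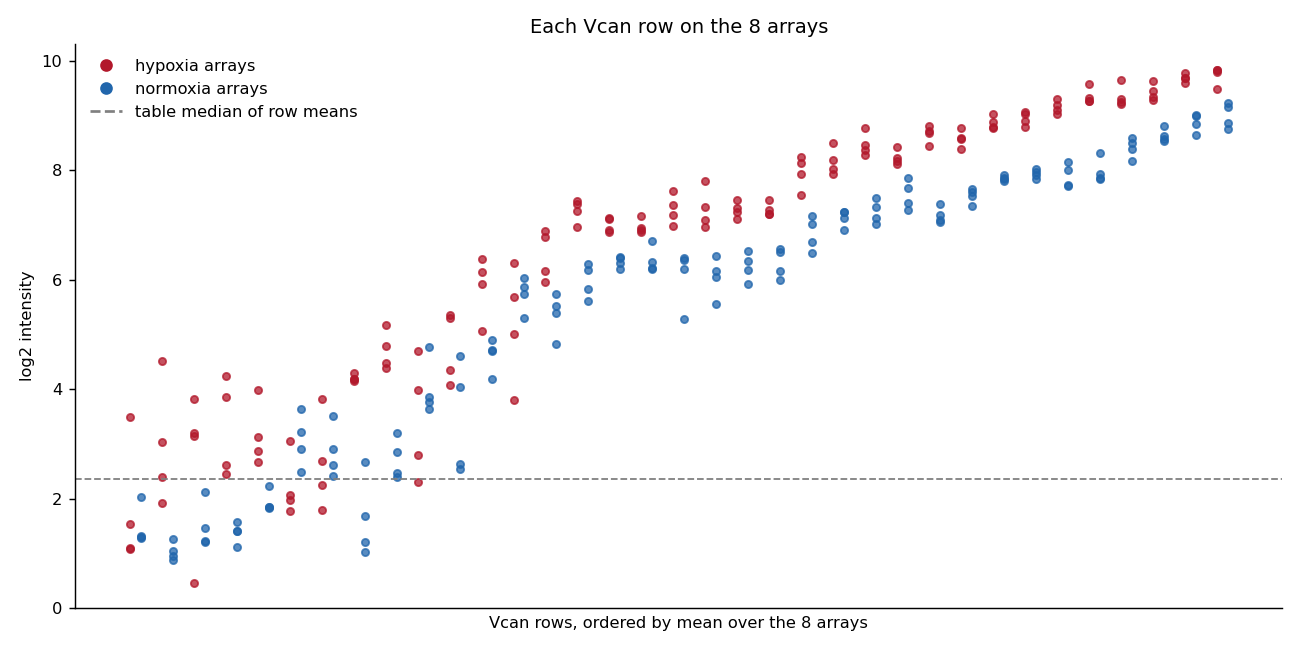
Log2 intensity of every Vcan row on every array, with the 35 rows ordered by their mean over the 8 arrays. Red points are the 4 hypoxia arrays and blue points the 4 normoxia arrays, drawn slightly to the right, and the dashed line is the table median of 2.35. Hypoxia lies above normoxia throughout the bright rows, and the overlapping rows are in the dimmer part.

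The genes whose levels followed Vcan most closely over the 8 arrays, among genes with at least 3 kept rows, were Higd1a (Pearson r = 0.994), Ero1a (0.991), Tpi1 (0.990), Pgk1 (0.989) and Gapdh (0.987). Higd1a encodes a mitochondrial inner membrane protein, Ero1a an oxidase that forms disulfide bonds in the endoplasmic reticulum, and the other 3 encode enzymes of glycolysis. The difference was 2.60 for Higd1a, 2.12 for Ero1a and 0.87 for Gapdh. These coefficients are a description over 8 arrays in 2 groups, and the step between the groups is shared by all of these genes.

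Acan encodes aggrecan, the proteoglycan of cartilage that binds hyaluronan in the same way as versican. Its level was 3.44, 3.19, 3.63 and 3.13 in hypoxia, against 3.64, 3.37, 3.43 and 3.75 in normoxia. The groups overlapped, and the difference was -0.20 ± 0.15, close to the median of all genes. Only 10 of its 24 rows were kept, none of the 24 had separated groups, and the differences of the kept rows ran from -1.29 to 0.88. Cartilage markers were low on the same arrays, with a mean over the list of 3.84 to 3.99 in hypoxia and 3.86 to 4.44 in normoxia. Of the 9 cartilage markers, 1 passed the limma test as lower, where 0.796% of all genes did. It was Col10a1, a collagen of hypertrophic cartilage, with -1.03 (limma, adjusted p = 0.0066). Groups did not overlap for Col10a1, Col2a1 (-0.47) and Col11a2 (-0.48), with hypoxia below, which 14.5% of all genes showed. The part of cartilage markers in the Acan values was not tested.

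Hapln1 encodes the link protein that joins versican or aggrecan to hyaluronan, and no other protein-coding gene lies between it and Vcan in RefSeq. Only 1 of its 11 rows was kept, and that row read 2.93, 3.67, 2.82 and 3.29 in hypoxia, against 3.47, 2.59, 2.63 and 2.49 in normoxia. Normoxia replicate 1 stood among the hypoxia arrays while the other normoxia arrays lay below all of them, and the difference was 0.38 ± 0.26. Without normoxia replicate 1 it was 0.61, and without hypoxia replicate 2 it was 0.22. Of all 11 rows, 10 had a positive difference. In 3 of the dim rows all hypoxia arrays lay above all normoxia arrays, with differences of 0.45, 1.29 and 1.33. Of all rows naming 1 gene, dim or kept, 3.15% showed this, and of the kept ones 2.24%. Dim rows thus showed it more often than kept rows. With every dim row included the difference was 0.56.

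Has2 encodes the hyaluronan synthase that mouse embryos need for heart development. Its level was 4.94, 4.54, 5.27 and 4.78 in hypoxia, against 4.001, 4.78, 4.52 and 4.44 in normoxia. Hypoxia replicate 2, the lowest of its group, lay below normoxia replicate 2, and so by a small step did hypoxia replicate 4 (4.776 against 4.777). The groups therefore overlapped, and the difference was 0.45 ± 0.20. Without normoxia replicate 1, the lowest array, it was 0.30. All 6 rows were kept and 5 had a positive difference, the largest being 1.14, but in none did the groups separate. Has2 overlaps the antisense lncRNA gene Has2os in RefSeq, and no source used here gave the strand of the rows.

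The other synthase genes, Has1 and Has3, showed smaller differences. Has1 read 4.24, 3.87, 3.89 and 4.08 in hypoxia, against 3.88, 4.10, 4.03 and 3.76 in normoxia, a difference of 0.08 ± 0.14 with the groups mixed. It overlaps the protein-coding gene Spaca6 in RefSeq. Has3 read 3.02, 2.44, 2.97 and 3.98 in hypoxia, against 3.56, 3.59, 3.19 and 2.93 in normoxia. The hypoxia values of Has3 spanned both the lowest and the highest of its 8 arrays, the difference was -0.22 ± 0.31, and 4 of 14 rows were kept. It was 0.0031 without hypoxia replicate 2 and -0.51 without hypoxia replicate 4. In 1 of these 4 rows all hypoxia arrays lay below all normoxia arrays, with a mean difference of -0.72. The highest hypoxia value of that row, 3.979, lay just under its lowest normoxia value, 3.982. Of all kept rows naming 1 gene, 6.75% had all hypoxia arrays below.

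Cd44 encodes the main cell-surface receptor for hyaluronan. Its level was 6.61, 6.59, 6.73 and 6.65 in hypoxia, against 6.71, 6.93, 6.80 and 6.74 in normoxia. The groups overlapped only through hypoxia replicate 3 and normoxia replicate 1, and the difference of -0.15 ± 0.11 was close to the median of all genes. Single rows differed in direction. Of 27 kept rows, 18 were lower and 9 higher in hypoxia. Over all genes, rather than rows, 75.7% had a negative difference. In 4 rows all hypoxia arrays lay below all normoxia arrays, by -0.58 to -0.24, and in 1 all lay above, by 0.78. Of all kept rows naming 1 gene, 6.75% lay below and 2.24% above in this way.

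The 4 separated lower rows of Cd44 were among its bright rows. The brightest read 10.88, 10.90, 10.92 and 10.61 in hypoxia, against 11.35, 10.93, 11.12 and 11.43 in normoxia, and the hypoxia values all stayed under the lowest normoxia value by a small step. The separated higher row read 5.37, 5.58, 6.12 and 6.25 in hypoxia, against 5.03, 5.26, 4.85 and 5.08 in normoxia. Cd44 RNA is alternatively spliced through a run of variable exons, but rows could not be tied to them here. Taking the median of the rows in place of their mean turned the Cd44 difference to 0.20.

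Hyal2 encodes a hyaluronidase anchored at the cell surface that cuts long hyaluronan into fragments. Its level was 4.77, 4.51, 4.36 and 4.33 in hypoxia, against 4.72, 4.95, 4.78 and 4.77 in normoxia. Hypoxia replicates 2, 3 and 4 lay below all normoxia arrays and replicate 1 lay among them, with a difference of -0.31 ± 0.13, or -0.12 from the median of all genes. Of its 8 kept rows 7 were lower in hypoxia. Over all genes, rather than rows, 75.7% had a negative difference. In 2 of the rows all hypoxia arrays lay below all normoxia arrays, by -1.10 and -0.53, which 6.75% of all kept rows naming 1 gene showed.

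Hyal1 encodes the hyaluronidase that works in lysosomes and lies beside Hyal2 on the chromosome. It read 3.77, 3.33, 3.99 and 4.02 in hypoxia, against 3.30, 3.59, 3.71 and 3.56 in normoxia, and the difference was 0.24 ± 0.18. Hypoxia replicates 1, 3 and 4 lay above all normoxia arrays, while replicate 2 lay among them. Its 8 kept rows disagreed, from -0.92 in the brightest row to 1.83, and the difference was -0.37 when only the brighter rows were used, 0.67 with the median of the rows and 0.39 without hypoxia replicate 2. Hyal1 overlaps Naa80 and Hyal3 in RefSeq, so which gene its rows report is uncertain.

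Tnfaip6 encodes TSG-6, a secreted protein induced by inflammatory signals that moves heavy chains of inter-alpha-inhibitor onto hyaluronan. It read 2.38, 2.04, 2.84 and 3.24 in hypoxia, against 2.25, 3.02, 2.79 and 2.44 in normoxia. The groups were fully mixed, the mean was 2.62 ± 0.52 in hypoxia and 2.63 ± 0.35 in normoxia (SD, n = 4 each), and 4 of its 10 rows were kept. The difference was -0.00099 ± 0.27, an error that leaves a small difference undetectable on these arrays.

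Outside Vcan, few rows of these genes separated the groups. Of 77 kept rows of the other 9 genes, 1 had all hypoxia arrays above and 7 had all below, or 1.30% and 9.09%, where 2.24% and 6.75% of all kept rows did. The median difference over the 10 genes was 0.04, with 5 above 0 and 5 below, beside the median of -0.19 over all genes. Several of these genes were dim. Acan, Hapln1, Has1, Has3, Hyal1 and Tnfaip6 had a mean over the 8 arrays below 4.57, the 90th percentile of the receptor genes named above. Has2 (4.66) and Hyal2 (4.65) lay just above it.

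**Figure D3:**
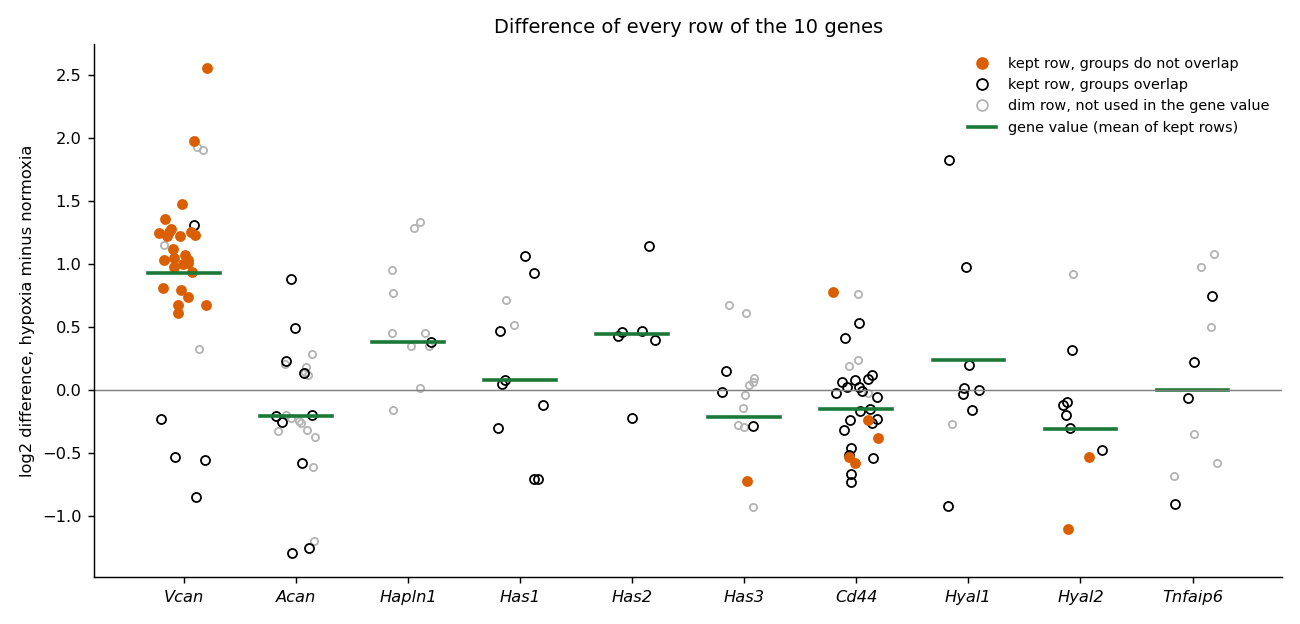
Difference in log2 intensity, hypoxia minus normoxia, of each of the 160 rows of the 10 genes. Filled points are kept rows in which the groups did not overlap, open black points kept rows in which they did, grey points dim rows, and green bars the value of the gene. The filled points of Vcan lie between 0.61 and 2.56, and those of Has3, Cd44 and Hyal2 mostly lie below 0.

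The wider pathway was followed through 47 further genes chosen by function: other proteoglycans and link proteins, receptors, degrading enzymes, proteins that cross-link hyaluronan, enzymes that make its sugar nucleotide precursors, proteases that cut versican and aggrecan, and matrix proteins that bind versican. Of these, 44 had a kept row and entered the limma test, adjusted by Benjamini-Hochberg over all genes. None passed as higher and 1 passed as lower, where 0.531% and 0.796% of all genes did. Without adjustment 2 were higher and 5 lower at a p under 0.05, beside 569 higher and 3840 lower of all 18848 genes. The median difference was -0.07, and 16 of the 44 were above 0. Groups did not overlap in 2 with hypoxia above and in 4 with hypoxia below, where 1.87% and 14.5% of all genes showed this.

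The 1 gene that passed as lower was Cemip, which encodes a hyaluronan-binding protein that fibroblasts use to break hyaluronan down. Its level was 3.79, 3.69, 3.59 and 3.73 in hypoxia, against 4.36, 4.68, 4.61 and 4.34 in normoxia. The mean over the 8 arrays, 4.10, was below 4.57, the 90th percentile of the olfactory, vomeronasal and trace amine receptor genes. All hypoxia arrays lay below all normoxia arrays, which 14.5% of all genes showed, with a difference of -0.80 ± 0.12 (limma, adjusted p = 0.025). It rested on 39 of 41 rows, of which 38 had a negative difference. Over all genes, rather than rows, 75.7% had a negative difference. In 9 of the rows all hypoxia arrays lay below all normoxia arrays, which 6.75% of all kept rows naming 1 gene showed. The call was lost when any 1 of the 8 arrays was left out, with differences then of -0.85 to -0.74, and with the median of the rows (adjusted p = 0.012 to 0.14 over all alternatives of the limma fit).

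The Cemip window is shown because Cemip was the gene of the pathway that passed the test. It is the 250 bases before the annotated start in RefSeq for GRCm38.p6, chr7:84086506-84086755 on the minus strand, with capitals for the TATA box:
Cemip: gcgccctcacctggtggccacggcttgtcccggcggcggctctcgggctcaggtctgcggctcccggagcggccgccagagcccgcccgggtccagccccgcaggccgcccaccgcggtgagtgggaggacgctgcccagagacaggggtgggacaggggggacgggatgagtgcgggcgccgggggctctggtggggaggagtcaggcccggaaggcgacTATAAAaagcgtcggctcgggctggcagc

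Neither the hypoxia response element core nor the AP-1 site was found in the Cemip window. The TATA box stood close to the start of transcription. The Vcan window above held none of the 3 motifs.

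All 6 measured genes for other ways of hyaluronan breakdown had a negative difference, from -0.80 to -0.04 with a median of -0.33. Over all genes 75.7% had a negative difference and the median was -0.19. Only Cemip passed. Gusb, which encodes the lysosomal enzyme beta-glucuronidase, read 4.03, 4.01, 3.74 and 3.78 in hypoxia, against 4.20, 4.45, 4.56 and 4.29 in normoxia, a difference of -0.48 (limma, adjusted p = 0.097). Its groups did not overlap, with hypoxia below, which 14.5% of all genes showed. The mean of Gusb over the 8 arrays, 4.13, was also below the 90th percentile of 4.57 given for Cemip. Hexa, for a subunit of lysosomal beta-hexosaminidase, had a difference of -0.39 (adjusted p = 0.18 by limma) with overlapping groups. Cemip2, for a cell-surface relative of the Cemip protein, had -0.19.

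Ugdh encodes the dehydrogenase that makes UDP-glucuronic acid, a precursor of hyaluronan and of chondroitin sulfate. It read 5.62, 5.70, 5.73 and 5.42 in hypoxia, against 4.98, 5.13, 5.17 and 5.07 in normoxia. The groups did not overlap, which 1.87% of all genes showed with hypoxia above. The difference of 0.53 ± 0.12 missed the threshold (limma, adjusted p = 0.067), and it passed with cyclic loess, without the filter on dim rows and with an intensity trend (adjusted p = 0.031 to 0.18 over all alternatives). The other genes of precursor supply lay between -0.34 and 0.22, with Gfpt1, for the first enzyme of the hexosamine pathway, at -0.13.

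Among proteases of versican and aggrecan none passed. Adamts5, for an aggrecanase that also cuts versican, read 5.93, 5.72, 5.81 and 5.995 in hypoxia, against 5.43, 5.52, 5.51 and 5.58 in normoxia, a difference of 0.36 without overlap (limma, adjusted p = 0.12). Adamts1, for another protease that cuts versican, had -0.04, and its sign turned with quantile normalization and cyclic loess. Adamts8, with 3.63 to 3.70 in hypoxia and 3.95 to 4.52 in normoxia, had -0.53, also without overlap (limma, adjusted p = 0.099). All its values lay below the 90th percentile of 4.57 given for Cemip. Of all genes, 1.87% had groups without overlap with hypoxia above and 14.5% with hypoxia below. The differences of all 7 protease genes ran from -0.53 to 0.36.

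None of the other proteoglycan, link protein and receptor genes passed. The 5 genes of the first kind, Bcan, Ncan, Hapln2, Hapln3 and Hapln4, lay between -0.65 and 0.22. They stand in neighbouring pairs in RefSeq as Hapln1 and Vcan do, Hapln2 beside Bcan, Hapln3 beside Acan and Hapln4 beside Ncan. The 7 receptor genes lay between -0.29 for Hmmr, which encodes a hyaluronan-binding protein of the mitotic spindle, and 0.37 for Lyve1, a marker of lymphatic vessels. Layn, for the membrane receptor layilin, had 0.16.

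Cross-linking and versican-binding genes also gave no call. Ptx3, for a pentraxin that takes part in hyaluronan cross-linking with TSG-6, read 4.60, 3.56, 4.73 and 4.53 in hypoxia, against 3.72, 3.85, 3.99 and 4.22 in normoxia. Hypoxia replicate 2 lay below all normoxia arrays and the other 3 above them all, and the difference was 0.41 (limma, adjusted p = 0.35). Without that array it was 0.68 (limma, adjusted p = 0.097, the lowest of 0.097 to 0.85 over all alternatives). Of the matrix proteins that bind versican, Tnc, for tenascin-C, had 0.24 with overlapping groups (limma, adjusted p = 0.24). Of its 32 rows 31 were positive, and 7 had all hypoxia arrays above, which 2.24% of all kept rows naming 1 gene showed. Fbln2, for fibulin-2, had 0.08.

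**Figure D4:**
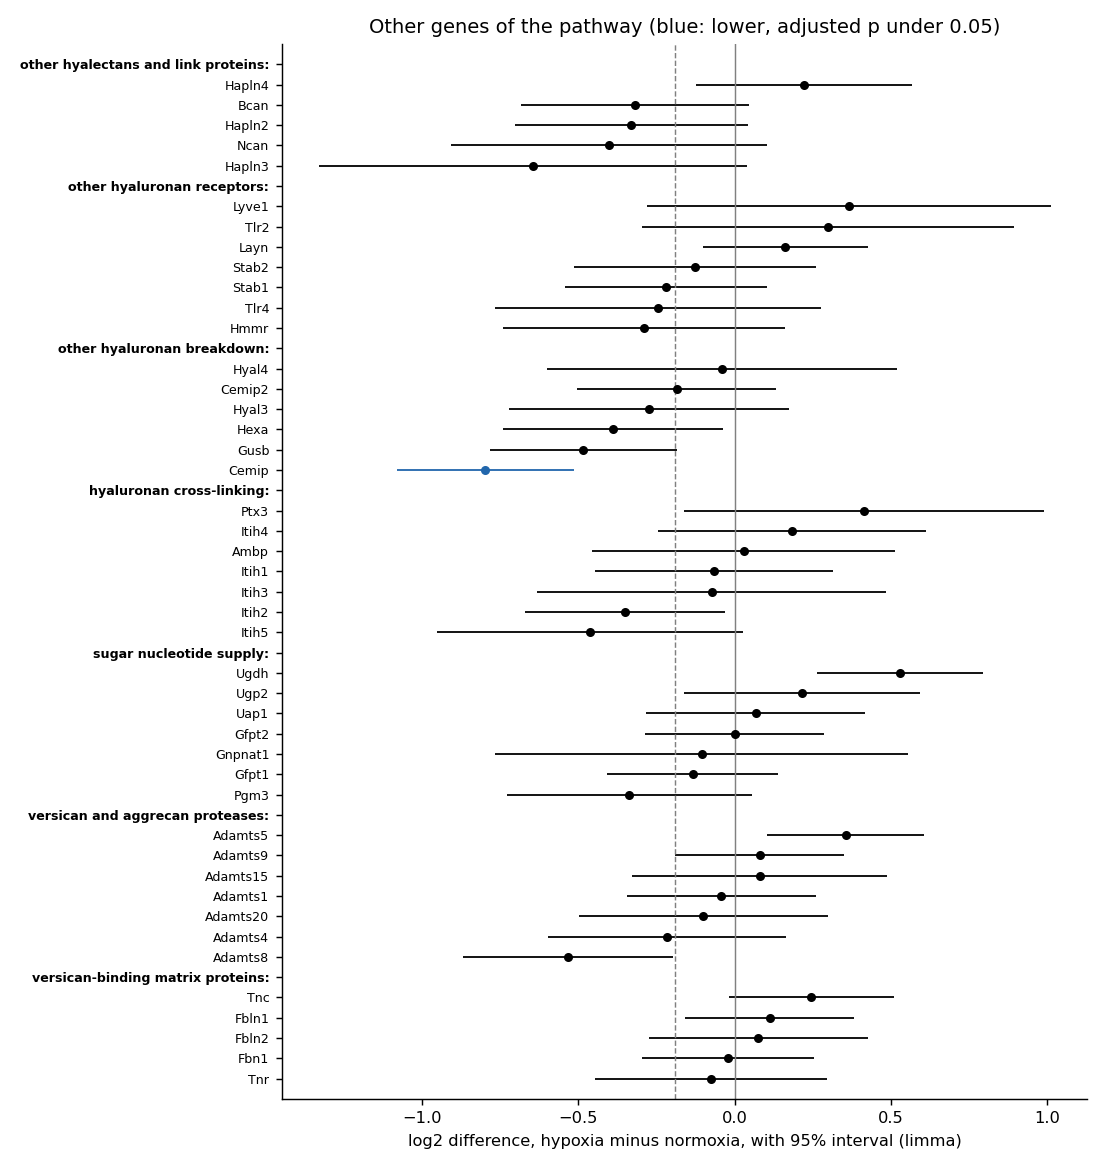
Difference in log2 level, hypoxia minus normoxia, of the 44 other pathway genes measured, with 95% intervals from limma, grouped by function. The dashed line is the median of all genes, -0.19, and the solid line is 0. Cemip at -0.80, in blue, is the gene past the adjusted threshold, and Ugdh at 0.53 and Adamts5 at 0.36 lie farthest to the right of 0 relative to their intervals.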

How the data were processed

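RNA of 8 samples, 4 hypoxia and 4 normoxia by their labels, was measured on Affymetrix Mouse Exon 1.0 ST arrays. The study's methods call the replicates biological, while the labels name no separate culture. The methods also give more replicates per condition than the labels, which were followed here. Where cultures were shared p-values measure only technical spread. The number of arrays limits the precision, and no batch or scan date was given.

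The deposited values are linear intensity per probe set. How the authors corrected background, normalized and summarized these intensity values is not given in the sources used here. Medians agreed between arrays (2.38 to 2.44 on the log2 scale), so log2 values were used without further scaling, although the interquartile range was narrower on hypoxia arrays (2.51 to 2.61) than on normoxia arrays (2.77 to 2.90). The rank method of the study and values of single probes were left out.

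Rows were named through the platform annotation, which gave 1 gene for 307991 rows (48.0%), several for 7047 and none for 326092. Of 21842 symbols, 17794 were current in RefSeq GRCm38.p6, 3985 were updated through a synonym (Cemip among them) and 63 kept. Rows with a mean below the table median (2.35) were dropped, leaving 191376. Beside the overlaps named above, Acan and Cemip each overlap an lncRNA gene in RefSeq, Hapln1 a pseudogene and Cd44 an snRNA gene. The mean over rows hides differences between exons, and background shrinks differences of dim rows. Hypoxia was set against normoxia in limma 3.58.1 under R 4.3.3 (lmFit and eBayes without covariates, two-sided). P-values were adjusted by Benjamini-Hochberg across 18848 genes, with 0.05 as the threshold. The fit was tested on simulated data. Figures were drawn with matplotlib 3.10.9.

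The 10 genes and all lists were chosen with earlier results of these data known. Named were the 10 genes, other pathway genes past the threshold, up to 2 uncalled genes of the highest level in each pathway group, and the 5 genes most correlated with Vcan. Bcan, Ncan, Hapln3, Lyve1, Cemip2, Adamts8, Col10a1, Col2a1 and Col11a2 fell outside this rule and were named after their values were seen. Hyal5 and Spam1 had no kept row, and 1 gene of the pathway lists is not reported here. Alternatives covered normalization (quantile, cyclic loess), the filter, the median of rows, an intensity trend with robust fit, a block for the replicate number, and each array left out in turn.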

Additional observations from a re-analysis of the deposited data

Results flagged for a closer look

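In 50 groups of 4 arrays (the 10 genes and 15 named pathway genes in each condition), 2 held an array far from the other 3 by Dixon's criterion, and chance flags about 1 in 20 groups. For Hapln1, normoxia replicate 1 stood highest in its group at 3.47, with the others at 2.49 to 2.63, a gap of 0.862 of the range. For Ptx3, hypoxia replicate 2 stood lowest at 3.56, with the others at 4.53 to 4.73, a gap of 0.830 of the range.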

How the results depend on the processing

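The Vcan difference stayed between 0.89 and 1.02 under all 15 alternatives. Under the 4 in which rows were counted, 2 normalizations and 2 filters that keep different numbers of rows, 23 to 28 Vcan rows had all hypoxia arrays above. Of the 10 genes, 2 were called higher without the filter on dim rows (Vcan and Hapln1), 0 with the replicate number as a block, and 0 to 1 with 1 array left out, 0 without normoxia replicate 3 or 4. None was called lower under any alternative. Rows of these genes with all hypoxia arrays below numbered 4 after quantile normalization and 3 after cyclic loess, against 7. Other pathway genes called higher numbered 1 (Ugdh) with cyclic loess, without the filter and with the intensity trend. Those called lower, 1 at first (Cemip), numbered 0 with the median of rows, 0 with the replicate block and 0 with any 1 array left out.

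Same-numbered arrays did not deviate together (correlations -0.12 to 0.07), so the block rests on a shared number only. In this balanced design the block cannot move a difference (0.93 for Vcan). With it Vcan did not pass, the adjusted p of Cemip was 0.14, and 34 of all genes were called higher and 3 lower, against 100 and 150. Over the other alternatives these counts ran from 54 to 217 higher and from 7 to 417 lower, lower being 45 with quantile normalization, 34 with cyclic loess and 25 with the median of rows. The median over all genes was -0.05 with cyclic loess and without the filter.

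Signs of small differences turned. Adamts1 was 0.033 with quantile normalization, 0.077 with cyclic loess and -0.11 to 0.052 with 1 array left out. Gfpt1 was 0.018 with cyclic loess, Fbln2 -0.037 with the median of rows, and Hapln4 -0.028 without the filter and -0.033 with the stricter one. Ambp, at 0.028 at first, was -0.10 with the stricter filter and -0.15 to 0.16 with 1 array left out. Of the 10 genes, Acan turned to 0.03 and Cd44 to 0.20 with the median of rows, Hyal1 to -0.37 with the stricter filter, Has3 to 0.0031 without hypoxia replicate 2, and Tnfaip6 in 7 of 14 alternatives. Hapln1 and Tnfaip6 had no row left under the stricter filter. The causes were not tested. Of the 10 genes, low signal limits Hapln1, Has3, Acan and Tnfaip6 most.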
